A study of Mus musculus with 9 samples.

Results

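Foxp1, Foxp2 and Foxp4 were followed through adult mouse spinal cholinergic neurons. They were chosen by symbol as a gene family and make up 3 of the 21457 genes in the deposited matrix, which has 4 Foxp genes in all, Foxp3 included. The matrix covers 16042 nuclei typed as cholinergic, of 34231 nuclei that the authors annotated. Spinal cords came from 12 mice aged 8 weeks, of genotype Chat-iCre:+/wt; SUN-SfGFP:+/wt, in which Cre under the cholinergic gene Chat switches on a GFP on the nuclear envelope. The GFP+ nuclei were sorted and read by 10x single-nucleus RNA sequencing. The mice were pooled by 4, with 2 males and 2 females in replicate 1, 4 males in replicate 2 and 4 females in replicate 3. Each pool was split into cervical, thoracic and lumbar/sacral cord, which gives 9 libraries, and sex cannot be told apart from pool. The Cre mark is permanent, so cells that expressed Chat at any earlier age also carry it.

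Foxp proteins are forkhead transcription factors that bind DNA as pairs of the same or of different members and mostly repress their targets. In the embryonic spinal cord Foxp1 works with Hox proteins to set up the lateral motor column, whose neurons reach the limbs, and the preganglionic column, whose neurons reach autonomic ganglia. Foxp2 is best known for its part in the brain circuits of vocal learning, Foxp4 acts beside Foxp2 in the differentiation of embryonic motor neurons, and Foxp3 is the defining factor of regulatory T cells.

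On the GRCm38 build, Foxp1 lies on the minus strand of chromosome 6 from 98925338 to 99522721 and Foxp2 on the plus strand of chromosome 6 from 14901349 to 15441977. Foxp4 lies on the minus strand of chromosome 17 from 47867133 to 47924645. Over all nuclei there were 21888 corrected counts of Foxp1 in 9761 nuclei, 4956 of Foxp2 in 1823 nuclei and 1026 of Foxp4 in 979 nuclei. Foxp3 had 38 counts in 38 nuclei, or 0.237% of them, and was not taken further. These values were corrected by the authors to remove differences in depth within each library, so they are model values. Library totals ran from 9751375 in lumbar/sacral replicate 3 to 19432614 in cervical replicate 1, with 747 to 2825 nuclei a library. The median total per nucleus ran from 4712 in lumbar/sacral replicate 1 to 16127 in cervical replicate 2. Levels below are CPM (counts scaled to a total of 1000000) of the sum over the nuclei of a library and group, where the group held at least 10 nuclei.

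The authors sorted the nuclei into 21 clusters: S1 to S3 of skeletal motor neurons, V1 to V10 of visceral motor neurons, which drive the autonomic system, and I1 to I8 of interneurons. The labels were held against known markers. Tns1, a marker of skeletal motor neurons, was found in 92.3% of S1 nuclei, 89.1% of S2 and 92.1% of S3, and in 36.3% of V1. Other genes of the skeletal list did not separate the classes, as Prph was found in 84.7% of V4 and 64.6% of S1 nuclei, Isl1 in 41.2% of V2 and 30.0% of S1, and Chodl in 52.6% of V9 and 0.654% of S1. Zeb2, a visceral marker, was found in 97.7% of V1 nuclei but in 23.3% of V7 and 3.43% of V8. Fbn2, another visceral marker, covered both of those clusters, with 92.1% in V7 and 99.1% in V8, but was found in 32.1% of V6. Nos1, the remaining gene of the visceral list, was found in 94.9% of I1 nuclei and 33.3% of V1. Pax2, a marker of interneurons, was found in 50.9% (I6) to 91.2% (I7) of the nuclei of I1 to I7 and in 4.26% of I8. In I8, 98.5% of nuclei carried Slc6a5, the glycine transporter, and 96.7% Mpped2. The cholinergic genes Chat and Slc5a7 were found in 16.9 and 9.38% of I7 nuclei, so most of its nuclei had no count of Chat and most had none of Slc5a7. I2 was low in both as well, at 30.1 and 19.9%, and I8 had Chat in 50.8% but Slc5a7 in 5.78%.

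The region labels were held against Hox genes, which mark levels along the cord. Of 10 Hox genes listed for this, 5 had a value. Hoxc5 stood at 25.4, 73.3 and 22.5 CPM in cervical replicates 1, 2 and 3, and at 85.3, 13.9 and 84.2 CPM in thoracic replicates 1, 2 and 3. Hoxa9, chosen after its values were seen, stood at 0.412, 9.68 and 0.213 CPM in the cervical and at 9.35, 0.507 and 9.04 CPM in the thoracic libraries. The library labelled cervical replicate 2 was therefore near the other thoracic libraries in both genes, and the library labelled thoracic replicate 2 was near the other cervical ones. In the lumbar/sacral libraries Hoxc5 stood at 93.6, 81.1 and 85.5 CPM. Hoxd10 was found there alone, at 8.01, 5.01 and 4.10 CPM. Hoxa10, another listed gene, stood at 0, 1.20 and 0 CPM in the cervical and at 0.85, 0 and 0.459 CPM in the thoracic libraries. There replicate 2 again stood with the other region, on 14 counts or fewer in each of these libraries. Hoxc4 did not go this way, at 59.2, 61.8 and 58.5 CPM in the cervical and 74.9, 34.8 and 64.2 CPM in the thoracic libraries. The labels were kept. The main region results of the Foxp genes are given with and without the libraries labelled cervical replicate 2 and thoracic replicate 2, and those of listed genes only with them. In addition, 33 of 16009 barcodes occurred in more than 1 library.

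Foxp1 split the visceral clusters into a high and a low set, while skeletal motor neurons and interneurons were all low. The highest mean was in V2, at 549 CPM ± 96.4 (SD, n = 9 libraries), with a lowest, median and highest library of 452, 532 and 788 CPM. V5 followed at 503 ± 83.0 CPM (n = 7), with 384, 493 and 609 CPM as its lowest, median and highest library. V8, a cluster of the lumbar/sacral libraries, stood at 490, 483 and 497 CPM in their replicates 1, 2 and 3. In all 3 of these clusters the lowest library was above the highest library of every skeletal and interneuron cluster, whose largest value was 224 CPM in I4. V4 came next at 408 ± 94.1 CPM (n = 9), with 311, 375 and 632 CPM as its lowest, median and highest library. V9 averaged 302 CPM with an SD of 224 (n = 6), the widest spread of the 21 clusters. The next cluster down was V3, at 160 ± 43.1 CPM (n = 9).

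Below V3 the Foxp1 means formed an unbroken slope across classes. It ran through I4 (134 CPM), S3 (133), V7 (132), V1 (125), I3 (122), S1 (119), V6 (117), I6 (112), I1 (111) and S2 (110) to V10 (95.5), I7 (92.5), I5 (86.6), I2 (74.8) and I8 (65.3 ± 25.04, n = 8). Visceral clusters V1, V6, V7 and V10 thus lay among the skeletal and interneuron clusters and not with V2 and V5. In single nuclei the same split showed as a share with at least 5 counts of Foxp1. That share was 41.8% in V2, 30.7% in V5 and 28.4% in V4, against 2.01% in V1, 1.34% in S3 and 0.724% in I1. V8, high by CPM, had 16.3%. This share depends on depth, and the median total per nucleus was 4971 in V8 and 7787 in V2.

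Clusters were then compared in pairs within libraries, with exact sign-flip tests and Benjamini-Hochberg adjustment over all 624. The authors drew the clusters from these same nuclei and a matrix that holds the Foxp genes, so the tests share that origin. For Foxp1, 61 of 208 pairs passed an adjusted p of 0.05. V2 was higher than 15 other clusters and V4 than 14, and I2 was lower than 13. V2 also exceeded V4, by 0.44 on the log2 scale (SD 0.19), in 9 of 9 libraries (exact p = 0.00391, adjusted p = 0.0321). No cluster passed the test against its neighbour in the order of means, for any of the 3 genes. V9 and V8, neighbours for Foxp2, had 0 libraries in common, so that pair was not tested. A cluster found in 7 libraries or fewer cannot reach the threshold, since the smallest exact p is then 0.0156, and V5, V8, V9, V10 and I7 are such clusters. The counts also hinge on how small an exact p the number of libraries allows. Over the 3 genes 107 pairs were called, against 98 without cervical replicate 2 and 0 without any other single library. With 8 libraries the smallest exact p is 0.00781 in every case, so pairs pass adjustment only where many of them reach that floor together. The counts of 0 therefore do not show that the levels depend on the library left out. I8 had no sum in cervical replicate 2, so its pairs lost no library there, and the part of this in the 98 was not tested.

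**Figure D1:**
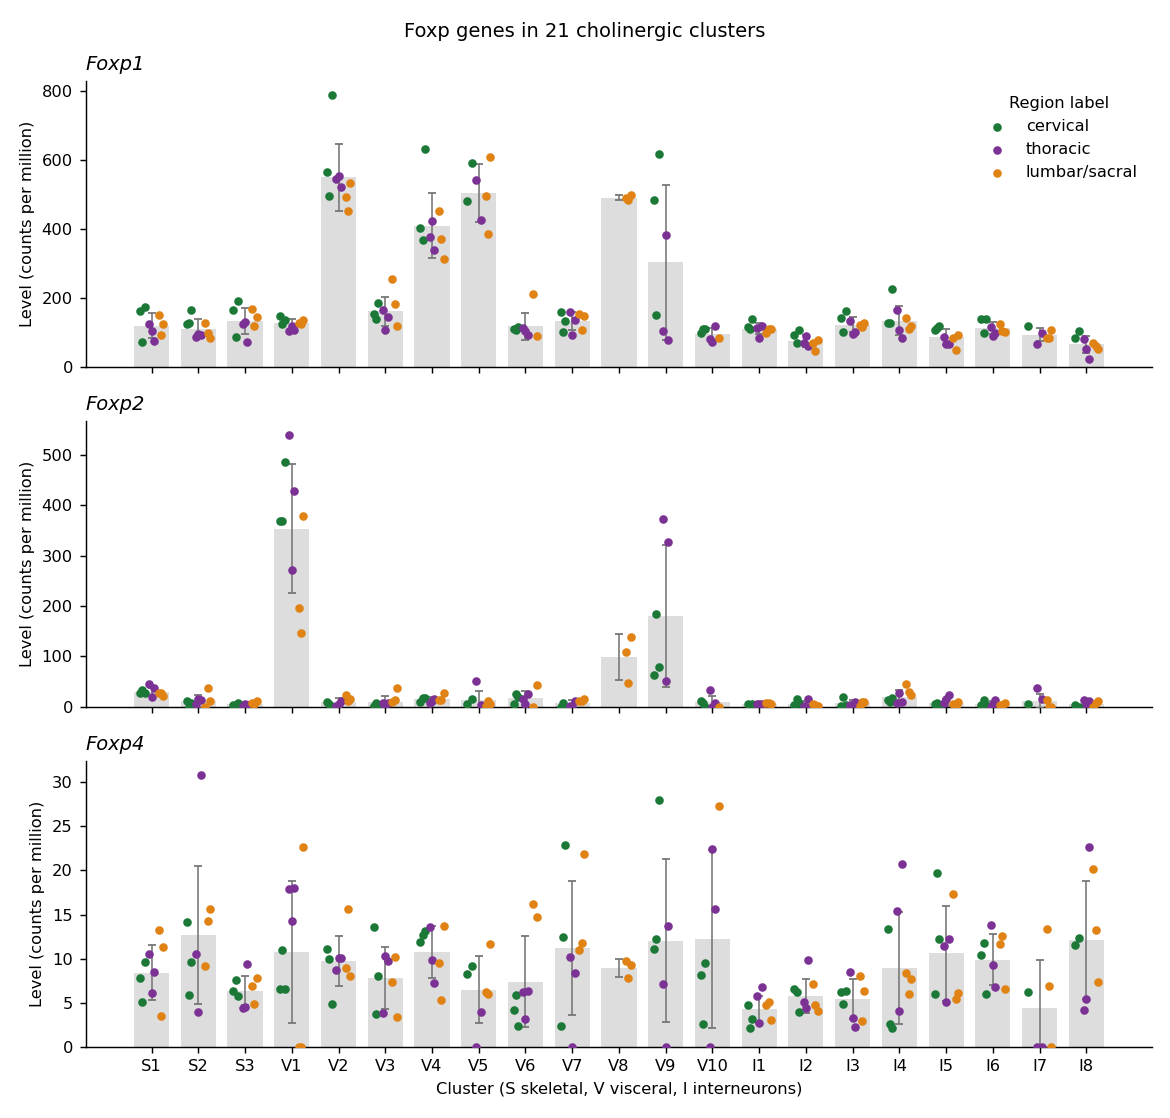
Levels of Foxp1, Foxp2 and Foxp4 in CPM (vertical axes) in each of the 21 clusters (horizontal axis). Bars are means over libraries, lines are SDs and points are single libraries coloured by region label. Foxp1 is high in V2, V4, V5 and V8, Foxp2 in V1, and both spread widely in V9, while Foxp4 means stay between 4.23 and 12.7 CPM.

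Foxp2 had a different and narrower pattern, led by a cluster in which Foxp1 was low. V1 averaged 354 CPM ± 129 (SD, n = 9), with 147, 369 and 540 CPM as its lowest, median and highest library. V9 came next at 179 ± 141 CPM (n = 6), and V8 after it, with 109, 47.8 and 138 CPM in lumbar/sacral replicates 1, 2 and 3. The lowest V1 library was above the highest library of every cluster other than V9. S1 was the highest outside the visceral class, at 29.5 ± 7.92 CPM (n = 9), followed by I4 at 20.3 ± 12.4 CPM (n = 9). All remaining clusters had means of 17.4 CPM (V6) or less, down to 5.59 CPM in S3.

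Among pairs of clusters, 36 of 208 passed for Foxp2. V1 was higher than 15 other clusters, and its difference from S1, the nearest of them, was 3.31 on the log2 scale in 9 of 9 libraries (SD 0.56, exact p = 0.00391, adjusted p = 0.0321). S1 in turn was higher than 11 clusters. The counts per nucleus separated in the same way. In V1, 34.3% of nuclei had at least 5 counts of Foxp2 and 21.1% had none, while in S3 96.0% had none, at median totals of 8663 and 7323 per nucleus. V9 had at least 5 counts in 21.5% of its nuclei.

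Foxp4 was low in every cluster, and its means spanned a narrower range than those of Foxp1 or Foxp2. Its means ran from 12.7 ± 7.83 CPM (n = 9) in S2, through V10 (12.3), I8 (12.1) and V9 (12.03), to 4.23 ± 1.54 CPM (n = 9) in I1. In S2 the lowest, median and highest library stood at 3.97, 10.5 and 30.8 CPM, and in I1 at 2.18, 4.71 and 6.74 CPM, so the ranges overlap. In pairs, 10 of 208 passed, and 5 of them had I1 as the lower cluster. The difference of S2 from I1 was 0.85 on the log2 scale in 9 of 9 libraries (SD 0.44, exact p = 0.00391, adjusted p = 0.0321). No nucleus had more than 3 counts of Foxp4.

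Over the 21 clusters the 3 genes ran largely apart from each other. Pearson's r of the mean log2 levels was 0.300 for Foxp1 and Foxp2, 0.146 for Foxp1 and Foxp4 and 0.206 for Foxp2 and Foxp4, where all points share the same libraries. The gene model Gm20696, chosen after its values were seen, overlaps Foxp1 on the same strand from 99257484 to 99666797. Its mean level ran from 47.8 CPM in S2 to 123 CPM in I4, and its r with Foxp1 was 0.220 over the 21 clusters.

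V9 had the largest SD between libraries for both Foxp1 and Foxp2. Its Foxp1 level was 483, 150 and 617 CPM in cervical replicates 1, 2 and 3, and 104, 381 and 76.4 CPM in thoracic replicates 1, 2 and 3. Its Foxp2 level in the same order was 62.6, 184 and 78.5 CPM, then 373, 51.4 and 327 CPM. The level of cervical replicate 3 came from 1 of its 17 nuclei. Libraries high in Foxp1 were low in Foxp2, and the swap did not follow the region labels. The libraries labelled cervical replicates 1 and 3 and thoracic replicate 2, with low Hoxc5 over all nuclei, were the Foxp1-high ones. Within V9 itself Hoxc5 did not split the libraries this way, at 73.7, 62.9 and 39.3 CPM in the cervical and 109, 21.4 and 114 CPM in the thoracic replicates 1, 2 and 3. Zeb2 in V9 stood at 608, 446, 841, 556, 479 and 404 CPM in the same order, so the visceral marker was present in all 6.

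The shares of V9 nuclei differed between libraries in the same way. Nuclei with Foxp1 and no Foxp2 made up 32 of 39 in cervical replicate 1, or 82.1% (95% Wilson interval 67.3 to 91.0%), 40.5% of 37 (26.3 to 56.5%) in replicate 2 and 94.1% of 17 (73.0 to 99.0%) in replicate 3. In thoracic replicates 1, 2 and 3 the same share was 7.94% of 63 (3.44 to 17.3%), 76.9% of 26 (57.9 to 89.0%) and 4.92% of 61 (1.69 to 13.5%). These intervals cover counting error only. Foxp2 was found in 90.5% of nuclei in thoracic replicate 1 (80.7 to 95.6%) and in 85.2% in thoracic replicate 3 (74.3 to 92.0%). Many nuclei held both genes, with 60.3% of V9 nuclei in thoracic replicate 1, 42.6% in thoracic replicate 3 and 37.8% in cervical replicate 2. In thoracic replicate 1 Foxp2 was found in 88.4% of nuclei with Foxp1 and 95.0% of those without, and in thoracic replicate 3 in 89.7 and 81.2%. The same shares were 48.3 and 87.5% in cervical replicate 2 and 8.57 and 75.0% in cervical replicate 1, where 4 nuclei lacked Foxp1. The summed level of 4 markers of inhibitory neurons in V9 was 33.2, 48.9 and 5.61 CPM in the cervical and 45.7, 12.8 and 47.0 CPM in the thoracic libraries. Gad2 was their most abundant gene in cervical replicates 1 and 2 and thoracic replicates 1 and 3, and in cervical replicate 3 Gad2, Slc32a1 and Slc6a5 were at 0. The part of these levels in the swap was not tested.

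**Figure D2:**
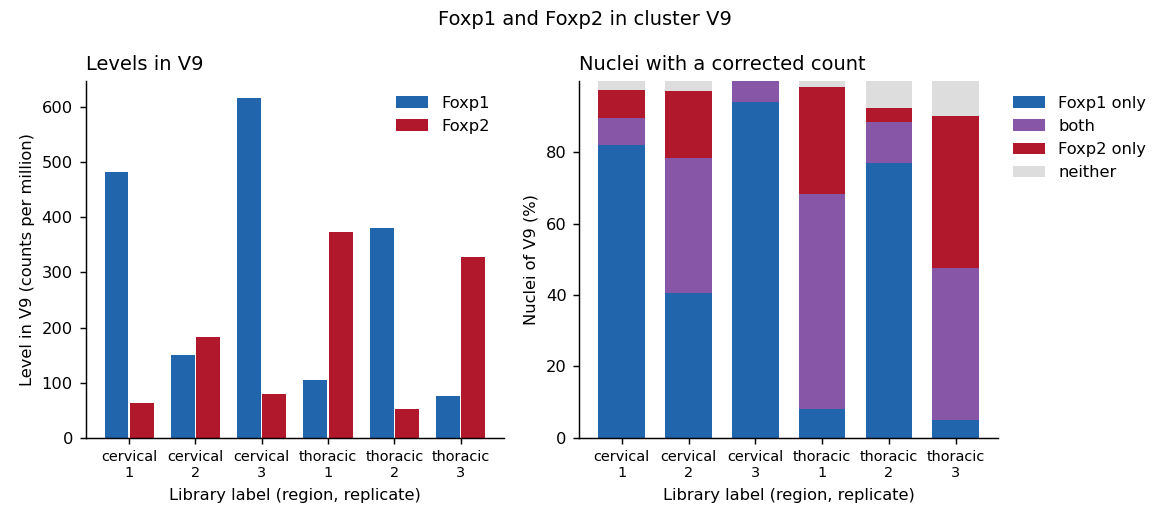
Left, levels of Foxp1 and Foxp2 in V9 in CPM, 1 pair of bars for each library that held at least 10 V9 nuclei. Right, the share of V9 nuclei (%) with Foxp1 only, both, Foxp2 only or neither; Foxp1 alone ranges from 4.92% in thoracic replicate 3 to 94.1% in cervical replicate 3.

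Detection of Foxp1 and Foxp2 in the same nuclei, by at least 1 corrected count of each, was described over clusters. In V1, 49.7% of 798 nuclei had both, 29.2% Foxp2 only and 12.8% Foxp1 only. Foxp2 was found there in 79.6% of nuclei with Foxp1 and 77.9% of those without, with all libraries pooled. By library the shares went either way, as with 80.2 and 100% in cervical replicate 2 and 66.7 and 27.3% in lumbar/sacral replicate 2. In V8, 26.6% of 467 nuclei had both and 61.9% Foxp1 only. In V2, 5.84% of 771 nuclei had both and 90.1% Foxp1 only. No background was taken off these shares, and for comparison Foxp3 was found in 0.237% of all nuclei.

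**Figure D3:**
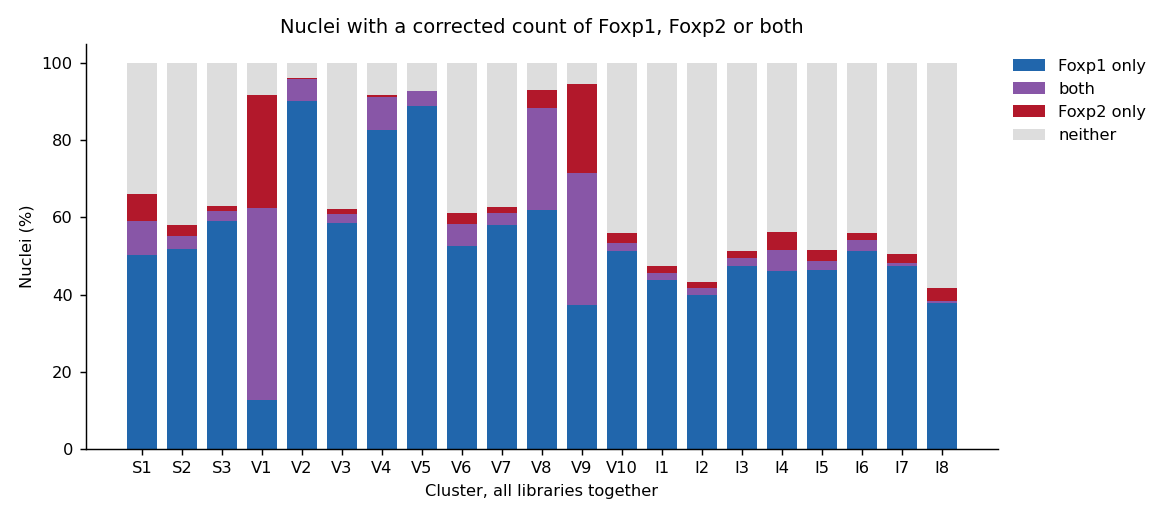
Share of nuclei (%) with a corrected count of Foxp1 only, both Foxp1 and Foxp2, Foxp2 only, or neither, in each of the 21 clusters with all libraries pooled. V1, V8 and V9 hold the largest shares with both genes, and V2, V4 and V5 are mostly Foxp1 only.

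By class, the share of nuclei with Foxp2 was 20.8% ± 6.42 (SD, n = 9 libraries) in visceral motor neurons, 8.95 ± 2.33% in skeletal motor neurons and 5.83 ± 3.75% in interneurons. With every nucleus thinned to 4600 counts, which levels depth and leaves out shallower nuclei, the shares were 17.1, 5.42 and 3.46%. The visceral share was higher than the skeletal by 11.8 points and than that of interneurons by 14.9 points, in 9 of 9 libraries each (exact sign-flip tests, adjusted p = 0.00703 for both). The skeletal share was higher than that of interneurons by 3.12 points in 8 of 9 libraries (exact, adjusted p = 0.0293). Without cervical replicate 1 or 3, thoracic replicate 1 or 3 or lumbar/sacral replicate 2 that last difference no longer passed, at 2.87 to 2.94 points and an adjusted p of 0.0586 each.

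Nuclei with both Foxp1 and Foxp2 made up 14.9 ± 5.38% of visceral motor neurons, 5.07 ± 1.59% of skeletal motor neurons and 3.46 ± 3.53% of interneurons. The visceral share was higher by 9.87 points than the skeletal and by 11.5 points than that of interneurons, in 9 of 9 libraries each (exact, adjusted p = 0.00703 for both). Between skeletal motor neurons and interneurons the difference of 1.60 points, in 8 of 9 libraries, did not pass (exact, adjusted p = 0.206). It did so without cervical replicate 2, at 2.60 points (adjusted p = 0.0100), and after thinning, at 0.835 points (adjusted p = 0.0234). Foxp4 was found in 7.46 ± 2.87% of visceral motor neurons, 6.57 ± 1.93% of skeletal motor neurons and 5.75 ± 2.74% of interneurons. The visceral share exceeded that of interneurons by 1.71 points in 9 of 9 libraries (exact, adjusted p = 0.00703), but after thinning by 0.684 points in 6 of 9, which did not pass (adjusted p = 0.121). The remaining pairs of classes did not pass for Foxp4, except that without cervical replicate 2 the skeletal share exceeded that of interneurons by 1.42 points (exact, adjusted p = 0.0264).

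Levels were next compared between the classes. In the embryo Foxp1 sets up both a skeletal column, the lateral one, and the preganglionic column, so this comparison does not test that embryonic role. Fits used limma across all genes with Benjamini-Hochberg adjustment, and calls needed both an adjusted p under 0.05 and a log2 fold change of 1 or more either way. The classes come from the same nuclei and clusters, so these calls share that origin. Foxp1 stood at 210, 275 and 423 CPM as the lowest, median and highest of 9 visceral sums, at 74.4, 115 and 177 CPM in skeletal sums and at 84.2, 101 and 142 CPM in interneurons. The visceral sums did not overlap the others. Against skeletal motor neurons Foxp1 was higher by 1.26 on the log2 scale (SE 0.09, limma adjusted p = 7.58e-11), and against interneurons by 1.47 (SE 0.09, adjusted p = 1.29e-11).

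Foxp2 stood at 29.7, 82.1 and 113 CPM as the lowest, median and highest visceral sum, at 9.43, 12.8 and 17.4 CPM in skeletal sums and at 5.05, 8.54 and 12.3 CPM in interneurons. Again every visceral sum was above all others, whereas skeletal and interneuron sums overlapped. Foxp2 was higher in visceral than in skeletal motor neurons by 2.13 (SE 0.18, limma adjusted p = 1.30e-09) and than in interneurons by 2.58 (SE 0.18, adjusted p = 1.19e-10). Foxp4 stood at 8.04, 9.41 and 11.4 CPM in visceral, 5.04, 8.14 and 11.6 CPM in skeletal and 4.47, 7.50 and 9.80 CPM in interneuron sums, which overlap throughout. Its log2 difference was 0.13 (SE 0.08, limma adjusted p = 0.178) against skeletal motor neurons and 0.27 (SE 0.08, adjusted p = 0.00986) against interneurons, under the fold minimum.

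Thus 2 of the 3 genes were called in visceral against skeletal motor neurons, where 11.8% of all genes tested were called. The same count of 2 of 3 was reached against interneurons, where 7.75% of all genes were called. At an unadjusted p under 0.05 by limma there were 7806 of 11292 genes in the former comparison and 6394 in the latter. How many other genes had visceral sums without overlap was not counted. Between skeletal motor neurons and interneurons 0 of 3 were called, beside 10.7% of all genes and 7147 of 11292 at an unadjusted p under 0.05 by limma. There Foxp1 was higher in skeletal motor neurons by 0.20 (SE 0.09, limma adjusted p = 0.0578) and Foxp2 by 0.45 (SE 0.18, adjusted p = 0.0393), both under the fold minimum. The summed level of oligodendrocyte markers moved with the classes, and followed Mbp more than the rest of the list. In cervical replicate 1, Mbp made up 72.6 of 91.7 CPM in the skeletal sum. It made up 28.6 of 48.0 CPM in the visceral and 17.7 of 37.1 CPM in the interneuron sum of that library. All 4 had values, and their sum ran from 53.8 to 91.7 CPM in skeletal, 34.9 to 58.3 CPM in visceral and 35.9 to 53.5 CPM in interneuron sums, with Mbp the most abundant gene in most sums. Markers of inhibitory neurons summed to 26.5 to 72.0 CPM in visceral, 21.5 to 38.7 CPM in skeletal and 272 to 362 CPM in interneuron sums. All 3 microglial markers had values, and their sum ran from 4.52 to 88.6 CPM in visceral, 7.13 to 118 CPM in skeletal and 5.83 to 99.1 CPM in interneuron sums, mostly from P2ry12. It was low in all libraries of replicate 1 and in cervical replicate 3. The 3 astrocyte markers summed to 0.41 to 2.88, 0.86 to 4.72 and 1.62 to 3.70 CPM in the same order. Of 2 markers of excitatory neurons only Slc17a6 had values, at 3.03 to 10.0 CPM in visceral sums. The part of these cell types in the Foxp differences was not tested.

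**Figure D4:**
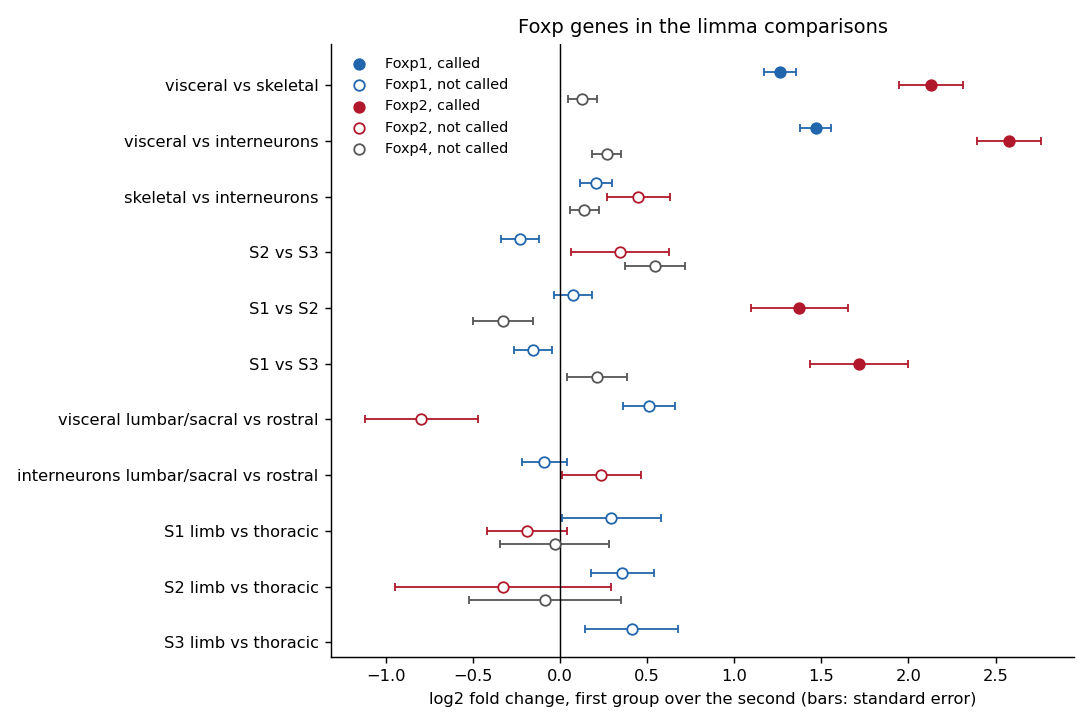
Log2 fold change (horizontal axis) of each Foxp gene in the 11 limma comparisons (vertical axis), with standard errors as bars. Filled points were called, which holds for Foxp1 and Foxp2 in visceral motor neurons against both other classes and for Foxp2 in S1 against S2 and S3.

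Within skeletal motor neurons the question was whether the 3 types that the study reads as alpha (S2), gamma (S3) and another type (S1) differ in Foxp genes. Some markers followed the labels. Stk32a was found in 85.7% of S2 nuclei, Nrp2 in 92.1% of S3 and Rreb1 in 77.4% of S1. Of the gamma list, Esrrg and Gfra1 were found in at least 96.1 and 90.4% of nuclei of every type. Their pooled levels differed, with Esrrg at 1964, 975 and 2078 CPM and Gfra1 at 378, 495 and 755 CPM in S1, S2 and S3. Foxp2 was highest in S1, though most S1 nuclei had none (84.2%, against 93.9% in S2 and 96.0% in S3). It stood at 19.0, 27.9 and 44.8 CPM as the lowest, median and highest of 9 S1 sums, at 0, 10.6 and 38.2 CPM in S2 and at 1.76, 4.47 and 11.99 CPM in S3. S1 did not overlap S3 and overlapped S2 through lumbar/sacral replicate 2, the highest S2 sum.

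Foxp2 was higher in S1 than in S2 by 1.37 on the log2 scale (SE 0.28, limma adjusted p = 0.000477), and than in S3 by 1.72 (SE 0.28, adjusted p = 3.12e-05). It was the 1 gene of 3 called in each, beside 5.23% of all genes for S1 against S2 and 5.33% for S1 against S3. Since S2 and S3 hold few counts of Foxp2, the size moves with the pseudocount. With 20 in place of 5 it was 0.73 and 0.94, under the fold minimum. Foxp1 lay at 70.5, 123 and 172 CPM in S1, 83.0, 97.8 and 166 CPM in S2 and 70.8, 128 and 189 CPM in S3, as lowest, median and highest. Its differences, 0.07 for S1 against S2, -0.16 for S1 against S3 and -0.23 for S2 against S3 (limma adjusted p = 0.117), were not called.

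Between S2 and S3, 0 of the 3 genes were called, beside 8.12% of all genes and 4433 of 11465 at an unadjusted p under 0.05 by limma. Foxp4 had the largest difference there, higher in S2 by 0.54 (SE 0.17, limma adjusted p = 0.0173), under the fold minimum. Foxp2 differed by 0.34 (SE 0.28, adjusted p = 0.405). For S1, Foxp4 differed by -0.33 from S2 (limma adjusted p = 0.181) and by 0.21 from S3 (adjusted p = 0.514), neither of them called. Mbp, the main oligodendrocyte gene, was found in 46.6% of S1, 50.0% of S2 and 16.1% of S3 nuclei, and its part in these differences was not tested.

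Along the cord, visceral motor neurons were compared between lumbar/sacral and rostral (cervical and thoracic) libraries, where sacral preganglionic neurons would be included in the former. The authors corrected counts separately for each library, so region differences include differences between those corrections. Foxp1 stood at 423, 343 and 353 CPM in lumbar/sacral replicates 1, 2 and 3, at 271, 210 and 333 CPM in cervical and at 256, 275 and 228 CPM in thoracic replicates 1, 2 and 3. All 3 lumbar/sacral sums were above all 6 rostral ones. The log2 difference was 0.51 (SE 0.15), which did not pass over all genes (limma adjusted p = 0.119), and without the libraries labelled cervical replicate 2 and thoracic replicate 2 it was 0.46 (adjusted p = 0.118).

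Foxp2 ran the other way, at 50.0, 29.7 and 82.1 CPM in lumbar/sacral, 67.8, 105 and 110 CPM in cervical and 113, 54.6 and 111 CPM in thoracic replicates 1, 2 and 3. These ranges overlap. The difference was -0.80 (SE 0.32, limma adjusted p = 0.313), or -0.91 (adjusted p = 0.2002) without both libraries. Foxp4 fell under the filter of 10 CPM in at least 3 sums. So 0 of 2 genes tested were called, beside 4.27% of all genes (428 of 10031) and 1336 at an unadjusted p under 0.05. With a replicate block the count over all genes was 737, and without the same libraries it was 464. Leaving out cervical replicate 1 gave 267 genes, and leaving out lumbar/sacral replicate 1, 2 or 3 gave 160, 176 and 219. The lowest count was 96, with equal weights for 5 clusters as described next.

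The mix of visceral clusters changed between regions along with these levels. V8, high in Foxp1, made up 33.4, 25.8 and 32.4% of visceral nuclei in lumbar/sacral replicates 1, 2 and 3, and at most 0.279% in any rostral library. V1, high in Foxp2, made up 3.42, 5.78 and 6.37% of them in lumbar/sacral and 14.5 to 22.1% in rostral libraries. V5 took 18.4, 1.19 and 20.6% in cervical and 1.74, 28.9 and 0.102% in thoracic replicates 1, 2 and 3, where replicate 2 again stood with the other region. When the 5 visceral clusters found in every library (V1, V2, V3, V4 and V7) were given equal weights and the others, V8 among them, were left out, the Foxp1 difference was -0.08 (SE 0.14, limma adjusted p = 0.988). For Foxp2 it was -0.53 in the same fit. The weights and the omission of clusters were not tested apart.

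Within clusters, Foxp levels of lumbar/sacral and other libraries were compared by two-sided exact permutation tests. Of 54 tests 6 had a p under 0.05 and 0 passed adjustment, and none of the 6 was for Foxp1. In V3 Foxp2 stood at 9.82, 14.2 and 37.3 CPM in lumbar/sacral, 2.40, 7.40 and 1.61 CPM in cervical and 7.77, 2.56 and 6.97 CPM in thoracic replicates 1, 2 and 3. The groups did not overlap, with a log2 difference of 1.28 (exact p = 0.0119, the smallest possible with these 84 groupings, adjusted p = 0.429). These levels rest on few counts, as Foxp2 was found in 27 of 722 V3 nuclei. The 37.3 CPM came from 11 counts in 58 nuclei. V1 went the other way, at 196, 147 and 378 CPM in lumbar/sacral replicates against 272 to 540 CPM in rostral ones (log2 difference -0.84, exact p = 0.0476, adjusted p = 0.429). The others with a p under 0.05 were Foxp2 in V2 (1.10), I4 (1.02) and S3 (0.50) and Foxp4 in V6 (1.09), all higher in lumbar/sacral libraries. For Foxp4 in V6 the lumbar/sacral side was 2 libraries with 13 and 10 nuclei, so it rested on very few counts. Its exact p of 0.0357 is the smallest that 28 groupings allow. Without the libraries labelled cervical replicate 2 and thoracic replicate 2, 2 tests had a p under 0.05. With groupings kept within the pools of mice 3 had, for Foxp2 in V3, V1 and S3 (exact permutation p = 0.0370 each, adjusted p = 0.667). That is the smallest p that 27 groupings allow, so a pass after adjustment over 54 tests was nearly out of reach.

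**Figure D5:**
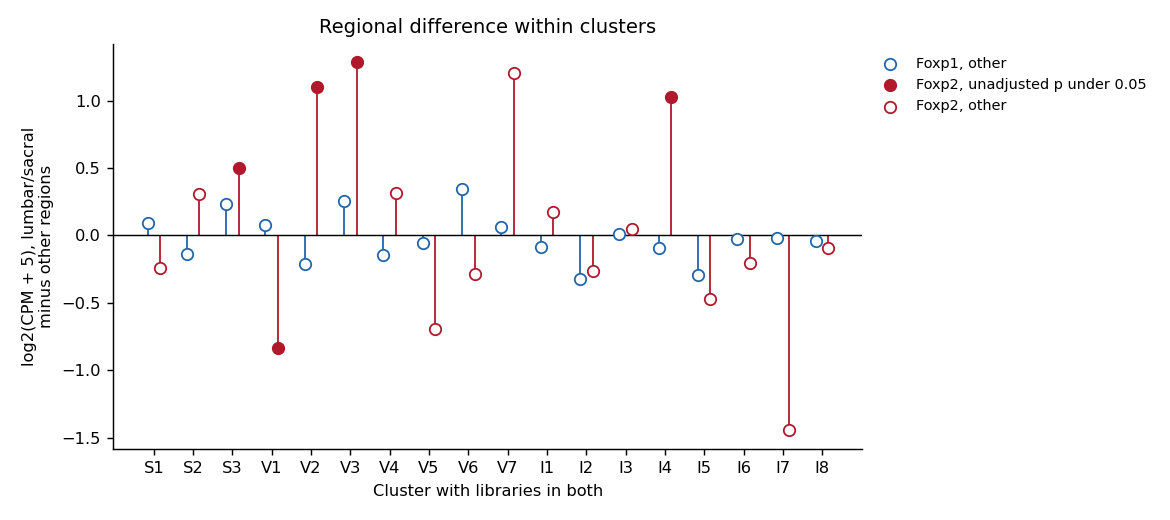
Difference in log2(CPM + 5) between lumbar/sacral and other libraries (vertical axis) for Foxp1 and Foxp2 in each cluster found in both (horizontal axis). Filled points had an unadjusted exact p under 0.05, which holds for Foxp2 in V1, V2, V3, I4 and S3, and no point passed adjustment.

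In interneurons Foxp1 stood at 104, 89.9 and 101 CPM in lumbar/sacral replicates 1, 2 and 3, 113, 99.5 and 142 CPM in cervical and 110, 84.2 and 90.2 CPM in thoracic ones. These ranges overlap, with a difference of -0.09 (SE 0.13, limma adjusted p = 0.9997), or -0.18 without the libraries labelled cervical replicate 2 and thoracic replicate 2. Foxp2 differed by 0.24 (SE 0.23, adjusted p = 0.9997) and fell under the filter without both libraries, and Foxp4 fell under it with all. Of the 2 genes tested 0 were called, beside 0.051% of all genes (5 of 9805) and 331 at an unadjusted p under 0.05. The 5 rose to 13 without both libraries and to 44 with a replicate block. Leaving out thoracic replicate 2 gave 9, and leaving out any other single library except cervical replicate 2 gave 1.

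Limb levels of the cord hold the lateral motor column, so each skeletal cluster was compared between cervical with lumbar/sacral libraries and thoracic ones. In S2, the alpha type, Foxp1 stood at 123, 126 and 166 CPM in cervical, 126, 97.8 and 83.0 CPM in lumbar/sacral and 85.8, 94.0 and 92.4 CPM in thoracic replicates 1, 2 and 3. The thoracic range lay within the limb range. The difference was 0.36 (SE 0.18, limma adjusted p = 0.985), and without the same libraries 0.41.

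In S1 Foxp1 stood at 160, 70.5 and 172 CPM in cervical, 151, 90.8 and 123 CPM in lumbar/sacral and 125, 104 and 73.6 CPM in thoracic replicates 1, 2 and 3. In S3 it stood at 163, 86.0 and 189 CPM, 168, 118 and 145 CPM, and 125, 128 and 70.8 CPM, in the same order. In both clusters cervical replicate 2 was the lowest of the cervical libraries. The limb difference was 0.29 (SE 0.28, limma adjusted p = 0.99997) in S1 and 0.41 (SE 0.27, adjusted p = 0.9998) in S3. Without the libraries labelled cervical replicate 2 and thoracic replicate 2 it was 0.53 (adjusted p = 0.999) and 0.72 (adjusted p = 0.911). Over the 20 alternatives this difference ran from 0.0936 to 0.53 in S1 and from 0.146 to 0.72 in S3. It did not pass in any of them.

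Foxp2 differed by -0.19 in S1 and -0.33 in S2, and Foxp4 by -0.03 in S1 and -0.09 in S2. Without the same libraries Foxp2 stood at -0.54 and 0.10 and Foxp4 at -0.08 and -0.45, and leaving out single libraries also turned the direction of all 4. In S3 both genes fell under the filter. In these comparisons 0 of 3 genes were called in S1, 0 of 3 in S2 and 0 of 1 in S3. The background was 0% in each, with 0 of 10025, 10387 and 9841 genes called and 196, 315 and 211 at an unadjusted p under 0.05 by limma. Without both libraries 2 genes were called in S3.

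For each Foxp gene, the 3 genes with the most similar mean log2 levels over the 21 clusters were taken from 11291 others. The measure is Pearson's r, the points share libraries, and nothing is read from it about shared control. For Foxp1 these were Adgb (r = 0.850), Gm28258 (0.847) and E430024P14Rik (0.814). Adgb, which encodes androglobin, had its highest means in V8, at 34.6 ± 7.73 CPM (n = 3), and V2, at 31.8 ± 16.7 CPM (n = 9), both Foxp1-high clusters. The least similar was Ppp1r16b (r = -0.730), highest in I8 at 94.4 CPM and lowest in V8 at 8.20 CPM.

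For Foxp2 the most similar were Pdia4 (r = 0.728), 4933412O06Rik (0.681) and Gemin8 (0.670). Pdia4, a protein disulfide isomerase of the endoplasmic reticulum, was highest in V1 at 13.0 ± 5.69 CPM (n = 9), and the glycolytic gene Aldoa was least similar (r = -0.757). For Foxp4 they were Parp16 (r = 0.805), Gm46430 (0.792) and Prune1 (0.782), with Atp1b1, a subunit of the sodium pump, least similar (r = -0.821). Atp1b1 was highest in I1 at 330 ± 172 CPM (n = 9), the cluster with the lowest Foxp4.

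Hox partners, factors that bind DNA beside Hox proteins, were high in visceral motor neurons. Of 7 genes tested 3 were called higher than in skeletal motor neurons and 0 lower, beside 11.8% called over all genes, with a median log2 difference of 0.98 beside 0.04. Meis1 stood at 342, 637 and 920 CPM as lowest, median and highest visceral sum and at 72.6, 105 and 164 CPM in skeletal sums, a difference of 2.45 (SE 0.15, limma adjusted p = 4.24e-12). Pbx3 differed by 2.21 (SE 0.08, adjusted p = 5.41e-16) and Meis2 by 1.08 (SE 0.18, adjusted p = 2.04e-05). In visceral motor neurons of the lumbar/sacral cord Meis1 was lower, at -1.03 (SE 0.16, limma adjusted p = 0.00677).

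Of 21 genes of motor columns and pools, 13 were tested between visceral and skeletal motor neurons, and 2 were higher and 9 lower, beside 11.8% called over all genes, with a median of -1.24 beside 0.04. Zeb2, a marker by which visceral neurons are labelled, so that its call follows from the labels, was higher by 4.69 (SE 0.24, limma adjusted p = 3.71e-13) and Nos1, the neuronal nitric oxide synthase, by 3.90 (SE 0.14, adjusted p = 5.38e-16). Mecom, which encodes a zinc finger transcription factor, was lower, at -3.44 (SE 0.16, adjusted p = 3.83e-14), with 0.435, 1.94 and 5.89 CPM as lowest, median and highest visceral sum against 36.4, 78.2 and 143 CPM in skeletal ones. In lumbar/sacral visceral motor neurons 6 of the list were tested, with 2 called higher and 1 lower beside 4.27% called over all genes, and a median of 0.85 beside 0.06. Ret, a receptor of glial neurotrophic factors, was higher there by 1.71 (SE 0.17, limma adjusted p = 0.000761) and its partner Gfra1 by 1.45 (SE 0.21, adjusted p = 0.00488). V8, nearly confined to the lumbar/sacral libraries, held Gfra1 at 374 CPM, and its part in this difference was not tested.

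Of the corepressors of Foxp proteins, members of the CtBP and NuRD complexes, 14 were tested between visceral and skeletal motor neurons and 1 was called, beside 11.8% of all genes. This was Chd3, a remodelling enzyme of NuRD, at 1.10 (SE 0.07, limma adjusted p = 9.02e-12), and the median was 0.20 beside 0.04. Chd3 was low in skeletal motor neurons, at a mean of 24.3 CPM, against 58.6 CPM in visceral and 60.9 CPM in interneuron sums. Against interneurons 0 of 14 corepressors were called in visceral motor neurons, beside 7.75% of all genes. Along the cord 0 of 13 were called in visceral motor neurons, beside 4.27% of all genes, with a median of -0.03. Of 7 genes known elsewhere as Foxp2 targets 5 were tested, and 1 was called higher and 1 lower in visceral motor neurons, beside 11.8% of all genes, with a median of -0.24 beside 0.04. The receptor gene Met was higher by 1.92 (SE 0.10, limma adjusted p = 2.10e-13) and the transcription factor gene Mef2c lower, at -2.42 (SE 0.29, adjusted p = 2.07e-07). Mef2c was the 1 gene of 5 called in lumbar/sacral visceral motor neurons, at 1.13 (SE 0.24, limma adjusted p = 0.0320), beside 4.27% of all genes, with a median of -0.32 for the list. In interneurons and in skeletal clusters 0 genes of any of these lists were called between regions, beside 0.051% of all genes in interneurons and 0% in each skeletal cluster, so these counts say nothing about the lists.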

How the data were processed

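The authors used Cell Ranger 3.1.0 and a GRCm38 reference built for pre-mRNA, normalized each barcoded library apart with SCTransform in Seurat, and deposited corrected counts for 16042 cholinergic nuclei. The unit of these deposited values is treated as a score, whole numbers from a model and not counts of molecules, so no count model was used. Region, replicate, class and cluster come from the labels the authors deposited for each nucleus.

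Values were summed per library and class or cluster (at least 10 nuclei) and scaled to 1000000 (CPM). Fits used log2(CPM + 5) and limma 3.58.1 with a trend (R 4.3.3). Genes needed 10 CPM in 3 sums or more, with Benjamini-Hochberg adjustment over all genes tested. Class and type fits carried a library term, and region fits none. The limma fit was tested on simulated data. Shares and cluster levels used two-sided exact sign-flip or permutation tests over libraries. Shares were also taken with nuclei thinned to 4600 counts, which left out 8.63% of nuclei (44.1% in lumbar/sacral replicate 1). Depth is given per library in the results. Other steps used Python 3.11.15 and its packages scipy 1.17.1, pandas 2.3.3, numpy 2.4.6 and matplotlib 3.10.9, with a seed of 1 for random draws.

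Libraries of the same replicate number come from the same pool of mice by the labels. After region means were removed, libraries of different regions with the same number correlated across genes, with a median r of 0.650 in visceral motor neurons, 0.673 in skeletal motor neurons and 0.749 in interneurons over 9 pairs each, against -0.401, -0.442 and -0.454 for other numbers. A replicate block was therefore run for region fits.

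Genes were named by a rule: the Foxp genes, the 3 genes most and the 1 least similar to each over the 21 clusters, and, from each of 4 lists (Hox partners, motor column and pool genes, CtBP and NuRD corepressors, Foxp2 targets), the 3 with the largest difference among those called in visceral against skeletal motor neurons and the 2 largest in region fits. The members and lists were chosen with earlier results of these data known. Alternatives covered scaling by the median of ratios, filters, pseudocounts of 1 and 20, at least 25 nuclei a sum, equal weight for each nucleus, thinning, leaving out the 164 nuclei (1.02%) called as doublets by Scrublet in scanpy 1.11.5, no library term, equal cluster weights, the replicate block, and leaving out each library. Class and type fits without the libraries labelled cervical replicate 2 and thoracic replicate 2 were added after the data were seen, as were region permutations kept within the pools of mice. Foxp3 is not reported in the fits, for its few counts. No sequence is shown.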

Additional observations from a re-analysis of the deposited data

Results flagged for a closer look

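In 10 of 60 groups of libraries, 1 library stood far from the others for a Foxp gene, where chance flags about 1 in 20 groups if values are normally distributed, which was not tested for sums on few counts. In the library labelled cervical replicate 3, Foxp1 stood at 788 CPM in V2, beside a next highest 564 CPM, and at 632 CPM in V4, beside 450 CPM. Those sums held 21 and 30 nuclei. In V6, Foxp1 stood at 211 CPM in lumbar/sacral replicate 1, from 13 nuclei, beside 116 CPM.

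For Foxp2 the high libraries rested on few counts. They were 19.2 CPM in I3 of cervical replicate 2 (8 counts), 38.2 CPM in S2 of lumbar/sacral replicate 2 (16 counts), 33.5 CPM in V10 of thoracic replicate 1 (5 counts) and 50.9 CPM in V5 of the same library (8 counts). In lumbar/sacral replicate 3 they were 37.3 CPM in V3 (11 counts) and 27.4 CPM in V4 (6 counts). Foxp4 stood at 30.8 CPM in S2 of thoracic replicate 3 (7 counts).

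Class differences were compared between lumbar/sacral and rostral libraries by exact permutation tests over 84 groupings, 9 tests in all, run only with the libraries labelled cervical replicate 2 and thoracic replicate 2 included. The Foxp1 difference of visceral motor neurons from interneurons was larger in lumbar/sacral libraries by 0.60 on the log2 scale (1.87 against 1.27, exact p = 0.0119, adjusted p = 0.107). The Foxp2 difference changed by -0.89 against skeletal motor neurons (1.53 against 2.43, exact p = 0.0476, adjusted p = 0.134) and by -1.03 against interneurons (1.89 against 2.92, exact p = 0.0238, adjusted p = 0.107). These groupings mix the pools of mice, which the 3 regions share. With the 27 groupings within pools the exact permutation p was 0.0370, 0.0741 and 0.0370 in the same order. The smallest p that 27 groupings allow is 0.0370, so a pass after adjustment over 9 tests was nearly out of reach. The mix of visceral clusters differs between these regions, and its part in these 3 changes was not tested.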

How the results depend on the processing

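The calls of Foxp1 and Foxp2 in visceral motor neurons against both other classes held under all 20 alternatives, with log2 differences of 1.17 to 1.31 and 1.35 to 1.52 for Foxp1 and 1.52 to 2.41 and 1.75 to 3.03 for Foxp2. Class and type fits without the libraries labelled cervical replicate 2 and thoracic replicate 2 were an alternative chosen after the data were seen, and there the same calls held. Across all alternatives, 628 values kept their direction and side of the threshold, 11 reversed, 8 lost and 3 gained a pass. Genes called over all moved too. Against skeletal motor neurons, visceral ones had 669 to 1768 (1333 in the main fit), and against interneurons 429 to 1202 (875). Between skeletal motor neurons and interneurons the count ran from 626 to 1603 (1203). It ran from 179 to 901 for S1 against S2 (600), 208 to 840 for S1 against S3 (611) and 312 to 1293 for S2 against S3 (931). With a pseudocount of 20, Foxp2 in S1 fell under the fold minimum, at 0.73 against S2 and 0.94 against S3. Thinning turned Foxp4 in S1 against S3 to -0.0908, reduced its visceral share over interneurons to 0.684 points, which no longer passed, and let the share with both Foxp1 and Foxp2 pass between skeletal motor neurons and interneurons, at 0.835 points. Equal weights for the 5 visceral clusters found in every library, with V5, V6, V8, V9 and V10 left out, turned Foxp1 in lumbar/sacral visceral motor neurons to -0.0775 and gave 96 genes called over all.

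Limb differences in skeletal clusters, none of them called, changed sign in several settings. Foxp4 in S2 went to 0.00851 with scaling by the median of ratios and to 0.00502 after thinning, and Foxp2 in S2 went to 0.10 without the libraries labelled cervical replicate 2 and thoracic replicate 2. Leaving out single libraries gave -0.50 to 0.0265 for Foxp2 in S1 (positive without thoracic replicate 1), -0.71 to 0.0682 for Foxp2 in S2 (positive without lumbar/sacral replicate 1), -0.16 to 0.14 for Foxp4 in S1 (positive without cervical replicate 2, at 0.04, and lumbar/sacral replicate 2) and -0.55 to 0.45 for Foxp4 in S2 (positive without cervical replicate 2, at 0.02, and thoracic replicate 3).

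Leaving out single libraries moved the count of cluster pairs from 107 to between 0 and 98 (98 without cervical replicate 2, and 0 without any other), where 8 libraries allow no exact p under 0.00781. It moved the count of within-cluster region tests with a p under 0.05 from 6 to between 2 and 5, and without the libraries labelled cervical replicate 2 and thoracic replicate 2 that count was 2. With groupings kept within the pools of mice, an alternative added after the data were seen, it was 3. The Foxp2 share of skeletal motor neurons over interneurons ran from 2.87 to 4.02 points, the Foxp4 share from 0.442 to 1.42 points (1.42 and a pass without cervical replicate 2), and the share with both genes from 1.37 to 2.60 points (2.60 and a pass without cervical replicate 2). With a replicate block no Foxp gene was called between regions (Foxp1 in visceral motor neurons 0.51, adjusted p = 0.0835), while genes called over all rose to 737 in visceral motor neurons and 44 in interneurons. The causes of these changes were not tested beyond what the settings themselves show. Foxp2 in S2 and S3, and Foxp4 throughout, rest on few counts, which limits what differences can be seen.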
